A study of Homo sapiens with 4 samples.

Results

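COPII and COPI transport genes encode the vesicle machinery that moves proteins between the endoplasmic reticulum (ER) and the Golgi. The 51 genes were taken by symbol: the subunits of both coats, the factors that assemble them, cargo receptors, p24 proteins, KDEL receptors, ARF regulators and SNAREs. The deposited tables list 25192 genes and hold 50 of the 51, and all 50 passed the filter on low counts. The exception was SEC22B, a SNARE of ER-Golgi traffic, which was not analysed here.

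RNA was sequenced from A549, a human lung adenocarcinoma cell line, in 4 libraries. EV denotes 2 libraries of cells that received the empty control virus, and FCN3 denotes 2 libraries of cells that received the virus expressing FCN3. FCN3 (Ficolin 3) is a secreted lectin. Both viruses came from a retroviral vector that also encodes GFP, so that the EV cells carry the vector and GFP too, and the FCN3 insert carried a V5 tag. RNA was taken 48 h after infection. The share of transduced cells in the sequenced cultures is not given in the sources used here. Neither is whether same-group libraries came from separate cultures. The p-values therefore rest on the spread between these libraries, which may be technical and which the tests partly pool over genes.

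COPII vesicles form at ER exit sites, where the GTPase SAR1, loaded by PREB, recruits the inner coat of SEC23 and SEC24 and then the outer coat of SEC13 and SEC31. SEC24 binds cargo and membrane receptors, and the paralogs of SEC24 differ in part in the cargo they select. COPI vesicles run back from the Golgi and the intermediate compartment. Their coat, coatomer, is recruited by ARF GTPases, and they return escaped ER chaperones that KDEL receptors have captured. Genes of this traffic are known to respond to the unfolded protein response in secretory cells.

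The libraries held between 16353554 and 35733735 expected counts, with more counts in replicate 1 than in replicate 2 of either group. The expected count of FCN3 was 1 and 0 in the EV libraries, and 722388 and 448352 in the FCN3 libraries. Of 9 epithelial and A549 markers, all 9 were tested, and their summed level ran from 10050 to 10560 CPM (counts scaled to the library size) in EV and from 11490 to 12170 in FCN3. Of 9 markers of blood, endothelium and fibroblasts, 6 were at or under 3 counts in every library, 4 of them at 0, and the sum of the 9 ran from 1.03 to 2.03 CPM over the libraries. The sum covers single epithelial markers that differed in opposite directions. EPCAM was at 2.25 and 3.11 CPM in EV and at 1.00 and 1.46 CPM in FCN3, and KRT19 was at 23.1 and 37.5 CPM in EV and at 67.3 and 74.4 CPM in FCN3. None of the 9 epithelial and A549 markers was called in edgeR without a block, and their part in the results below was not tested.

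Levels below are TMM-normalized CPM unless TPM, which is per transcript length, is named, and a fold change is FCN3 over EV. Genes were tested over the whole table with edgeR's quasi-likelihood test, and a gene was called at a false discovery rate (FDR, the Benjamini-Hochberg adjusted p) under 0.01. A second fit of the same test added the replicate number as a block, since libraries were compared by replicate number as well as by group. The labels do not say what same-numbered libraries share. With so few libraries, the fit with the block rests largely on spread pooled over all genes. SEC31A differed by 0.74 and 0.76 (log2) within replicate numbers 1 and 2 and had a standard error of 0.052 in that fit. COPE differed by 0.52 and 0.30 and had one of 0.060. A very small FDR with the block is thus not a measure of how well a gene's own pairs agree. In bulk RNA, fewer cells with a transcript and less transcript per cell cannot be told apart.

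The listed ER-Golgi transport genes, which were chosen with earlier results of these data known, were mostly higher with the FCN3 virus. Of the 50 tested genes, 42 (84%) had a positive log2 fold change (38 when TPM was used), beside 51.9% of all 14099 tested genes. The median of the 50 was 0.37, against 0.02 over all tested genes. Without the block, 3 were called, all higher: SEC24D, STX5 and SEC23B. Over all tested genes 0.738% were called higher and 0.227% lower by that test. Without FCN3 replicate 1 or FCN3 replicate 2, 1 and 2 members were called, and without EV replicate 1 the 3 called were SEC24D, TMED7 and TMED10. With the replicate block, 31 of the 50 (62%) were called higher and 2 (ERGIC1 and TMED1) were called lower, beside 19.1% and 17.1% of all tested genes. DESeq2 with the block called 28 members higher and 1 lower, beside 1106 higher (5.93%) and 1103 lower of the 18636 genes it fitted. Of the 33 members that edgeR called with the block, it did not call COPB2, COPZ1, SEC16A and TMED1. DESeq2 without a block called 18 members, all higher, where it called 4.45% of all genes with an adjusted p higher. At an FDR of 0.05 in edgeR without the block, 19 were called higher, against 4.43% of all genes.

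The lower FCN3 library exceeded the higher EV library for 33 of the 50 genes (66%), where 28.0% of all tested genes did. Both FCN3 libraries were below both EV libraries for 3 of the 50 (ERGIC1, TMED1 and TMED4), where 26.5% of all tested genes did. Within replicate number 1 the median difference of the members was 0.36 on the log2 scale, and within replicate number 2 it was 0.31. The difference was positive in both for 40 members (80%), beside 41.7% of all tested genes. It was negative in both for 5 members, beside 5432 of the 14099 tested genes. The members made up 0.534% and 0.524% of all TPM in the EV libraries and 0.640% and 0.619% in the FCN3 libraries, although FCN3 itself took 4.16% and 4.47% of the TPM of the latter.

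**Figure D1:**
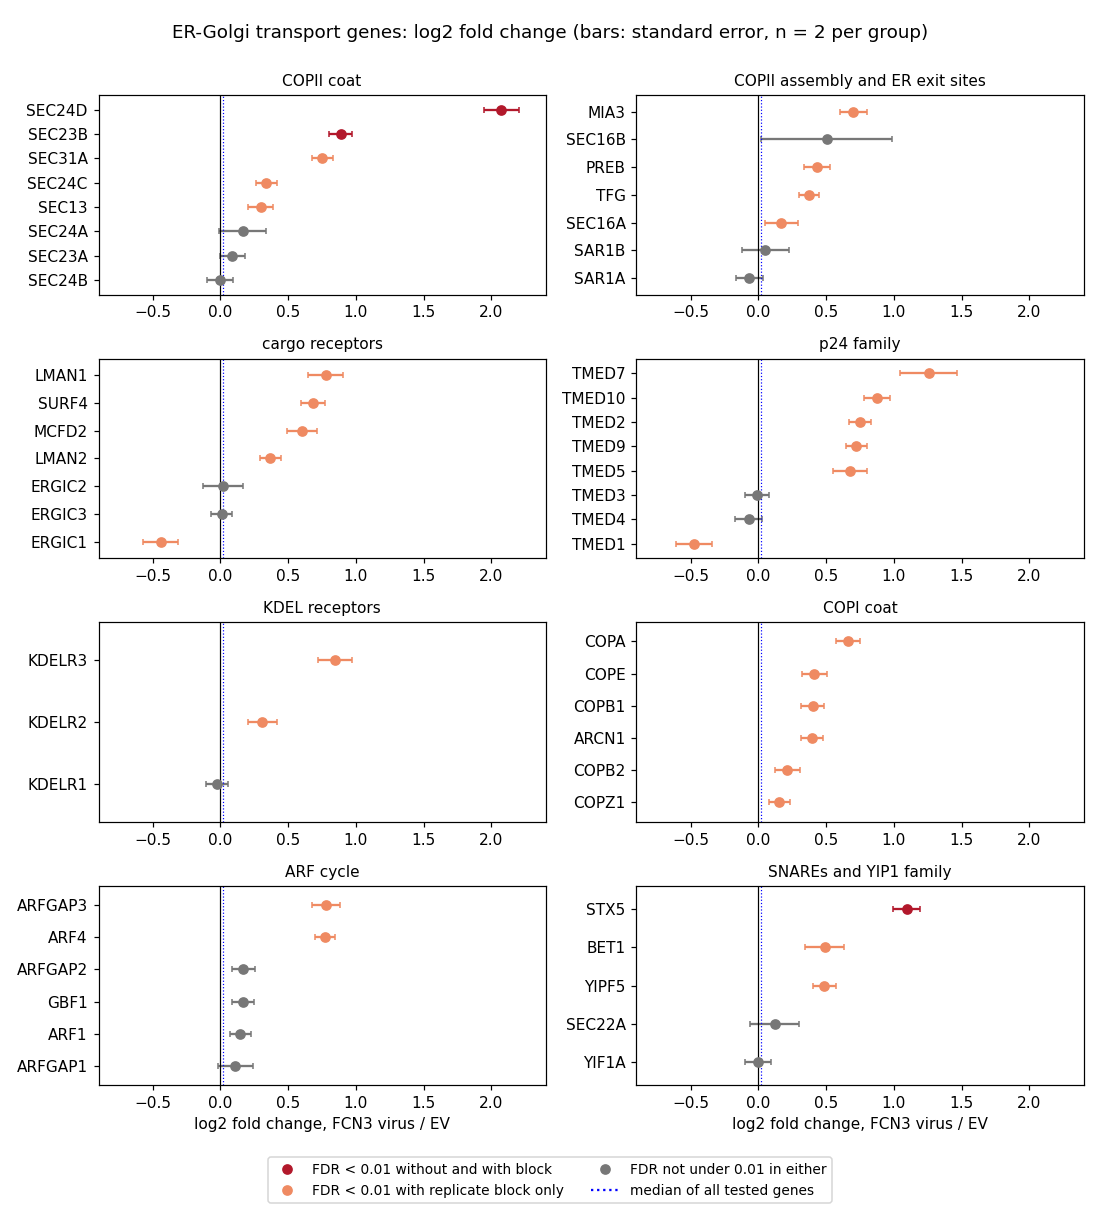
Log2 fold change, FCN3 virus over EV, of the 50 tested ER-Golgi transport genes by role, with the standard error as bars (n = 2 libraries in each group). Dark red points were called in edgeR without and with the replicate block, orange points with the block only, and grey points in neither. SEC24D stands at 2.07, and all 6 coatomer genes lie to the right of 0.

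Of the 8 COPII coat genes, 2 were called higher without the block and 5 with it, and none lower. The counts of this and each later role stand beside 0.738% of all tested genes called higher without the block and 19.1% with it. The shares called lower were 0.227% and 17.1%. The inner coat showed the largest change of any member, in SEC24D, which encodes a cargo-binding subunit. SEC24D (chromosome 4 of GRCh37, 119643978 to 119759838, minus strand, protein-coding) was at 31.5 and 26.6 CPM in the EV libraries and at 131 and 114 CPM in the FCN3 libraries. The lowest FCN3 library was thus far above the highest EV library. The group means were 29.1 ± 3.42 CPM and 123 ± 12 CPM (SD, n = 2 in each group), a 4.2-fold increase and a log2 fold change of 2.07 (standard error 0.13, FDR 0.003 in edgeR, and 6.1e-33 with the block). Leaving out each library in turn left the log2 fold change between 1.96 and 2.21, and the gene was called each time.

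The other SEC24 paralogs changed less. SEC24C was at 169 and 175 CPM in EV and at 215 and 221 CPM in FCN3, with both FCN3 libraries higher, a log2 fold change of 0.34 (standard error 0.08). It was called with the block (FDR 2.3e-07 in edgeR) and not without it (0.063). SEC24A was at 49.8 and 41.8 CPM in EV and at 58.8 and 43.8 CPM in FCN3. SEC24B was at 53.3 and 48.4 CPM in EV and at 50.7 and 51 CPM in FCN3. The groups overlapped for SEC24A and SEC24B, and neither was called (FDR 0.044 and 0.98 with the block in edgeR).

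The make-up of the SEC24 family therefore differed between the groups. SEC24D gave 11.8% and 10.4% of the summed TPM of the 4 paralogs in the EV libraries, and 32.0% and 29.3% in the FCN3 libraries. SEC24C remained the most abundant paralog in every library, from 57.7% and 61.8% in EV to 47.3% and 51.3% in FCN3. SEC24D was the least abundant of the 4 in both EV libraries and second to SEC24C in both FCN3 libraries. The summed TPM of the family was 125 and 120.0 in EV and 178 and 172 in FCN3. Shares of TPM within a library do not depend on the scaling between libraries, and they were given no test.

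SEC23 is the GTPase-activating subunit that pairs with SEC24. SEC23B (chromosome 20 of GRCh37, 18488164 to 18542059, plus strand, protein-coding) was at 134 and 134 CPM in EV and at 257 and 237 CPM in FCN3. It was 1.85-fold higher (log2 fold change 0.89, standard error 0.08, FDR 0.0085 in edgeR, and 2.2e-20 with the block). Without EV replicate 1, FCN3 replicate 1 or FCN3 replicate 2 the FDR in edgeR was 0.0103, 0.030 and 0.0111, outside the threshold each time, while the log2 fold change stayed between 0.82 and 0.94 with any library left out. Its paralog SEC23A was at 193 and 172 CPM in EV and at 197 and 192 CPM in FCN3, and was not called in either fit. SEC23B gave 45.4% and 48.1% of the TPM of the pair in EV, and 61.3% and 59.8% in FCN3. The more abundant paralog was thus SEC23A in both EV libraries and SEC23B in both FCN3 libraries.

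In the outer coat, SEC31A was at 146 and 148 CPM in EV and at 245 and 250 CPM in FCN3 (log2 fold change 0.75, standard error 0.08). Its FDR in edgeR was 0.0104 without the block, just outside the threshold, and 6.0e-18 with it. SEC13, which forms the cage with SEC31A and is also part of the nuclear pore, was at 154 and 146 CPM in EV and at 194 and 175 CPM in FCN3, called with the block only.

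**Figure D2:**
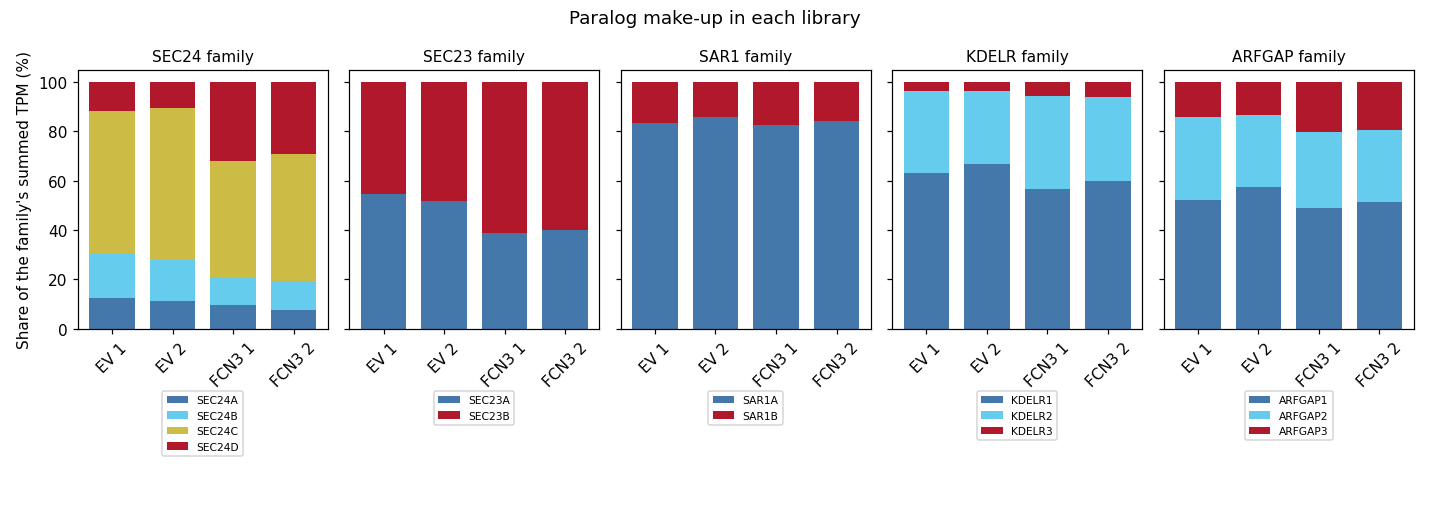
Share of a family's summed TPM (y axis, in percent) taken by each paralog in each of the 4 libraries, for the SEC24, SEC23, SAR1, KDELR and ARFGAP families. SEC24D (red in the SEC24 panel) went from 11.8% and 10.4% to 32.0% and 29.3%, while the SAR1 panel differs little between the groups.

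Neither gene of SAR1, the GTPase that starts COPII assembly, was called. SAR1A was at 114 and 104 CPM in EV and at 109 and 98.8 CPM in FCN3, and SAR1B at 50.9 and 38.9 CPM against 51.7 and 41.7 CPM. The groups overlapped for both genes (FDR 0.35 and 0.51 with the block in edgeR). SAR1A gave 83.5% and 85.8% of the TPM of the pair in EV, and 82.7% and 84.3% in FCN3.

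Of the 7 genes of COPII assembly and ER exit sites, 4 were called higher in edgeR, with the block only. DESeq2 without a block called 1 of them, MIA3. MIA3, the receptor that helps load bulky cargo such as procollagen, was at 50.9 and 47.1 CPM in EV and at 83.6 and 75.8 CPM in FCN3 (log2 fold change 0.70, standard error 0.10, FDR 0.021 in edgeR, and 5.4e-14 with the block). PREB, the exchange factor of SAR1, had a log2 fold change of 0.43, TFG, which organizes exit sites, one of 0.37, and SEC16A, their scaffold, one of 0.17. SEC16A was at 198 and 168 CPM in EV and at 221 and 190 CPM in FCN3, so its groups overlapped. SEC16B was the lowest member, with 0.4 to 0.98 TPM in the 4 libraries, and was not called.

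Of 7 cargo receptors, 4 were called higher with the block, 1 was called lower and 2 were called in neither direction. LMAN1 and MCFD2 form the receptor that exports coagulation factors from the ER. LMAN1 was at 142 and 118 CPM in EV and at 241 and 205 CPM in FCN3, and MCFD2 at 287 and 252 against 438 and 379 CPM, with log2 fold changes of 0.78 and 0.60. SURF4, a receptor for many soluble secreted proteins, was at 322 and 302 CPM in EV and at 518 and 484 CPM in FCN3 (log2 fold change 0.68, FDR 0.016 in edgeR, and 2.9e-17 with the block). LMAN2, a lectin of the early secretory pathway, had a log2 fold change of 0.37.

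The ERGIC proteins cycle between the ER and the intermediate compartment, and none was called higher. ERGIC1 was at 444 and 548 CPM in EV and at 345 and 386 CPM in FCN3, with both FCN3 libraries below both EV libraries. Its log2 fold change was -0.44 (standard error 0.13, FDR 0.11 in edgeR, and 1.7e-10 with the block). ERGIC2 and ERGIC3 had log2 fold changes of 0.02 and 0.01, with overlapping groups, and were not called in either fit.

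The p24 proteins (TMED genes) are membrane receptors that link cargo, GPI-anchored proteins among them, to both coats. Of the 8 measured, 5 were called higher with the block, 1 lower and 2 were not called. TMED7 (chromosome 5 of GRCh37, 114948907 to 114968689, minus strand, protein-coding) was at 111 and 78.1 CPM in EV and at 258 and 195 CPM in FCN3, a 2.39-fold difference (log2 fold change 1.26, standard error 0.21). In both groups replicate 1 was the higher library. The difference was 1.22 within replicate number 1 and 1.32 within replicate number 2, and the FDR in edgeR was 0.032 without the block and 2.3e-26 with it. Dropping EV replicate 1 or EV replicate 2 gave TMED7 a log2 fold change of 1.545 and 1.024. Dropping FCN3 replicate 1 or FCN3 replicate 2 gave 1.039 and 1.448, so the size depended on the library left out. The readthrough gene TMED7-TICAM2 shares sequence with TMED7, and the counting divides reads between them. Summed over TMED7, TMED7-TICAM2 and TICAM2, a sum added after the values were seen, the differences were 1.26 and 1.3.

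TMED10, TMED2 and TMED9, which form p24 complexes with one another, were called higher with the block. TMED10 was at 213 and 190.5 CPM in EV and at 385 and 356 CPM in FCN3, TMED2 at 309 and 296 against 528 and 489 CPM, and TMED9 at 159 and 157 against 265 and 256 CPM. Their log2 fold changes were 0.88, 0.75 and 0.72, and their FDR in edgeR without it lay between 0.0115 and 0.0128. TMED5 had a log2 fold change of 0.68.

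Of the remaining p24 genes, 1 was called lower. TMED1 was at 21.2 and 20.0 CPM in EV and at 15.9 and 13.8 CPM in FCN3, with both FCN3 libraries lower (log2 fold change -0.47, standard error 0.13, FDR 0.10 in edgeR, and 3.7e-05 with the block). TMED3 was at 132 and 122 CPM in EV and at 131 and 122 CPM in FCN3, and TMED4 at 32.0 and 31.9 against 29.9 and 31.0 CPM. Neither was called in either fit. Of the summed TPM of the 8 genes, TMED3 gave 19.8% ± 0.181 in EV and 13.1% ± 0.093 in FCN3 (SD, n = 2 in each group), the largest shift of share in this family. The sum of the 8 went from 997 and 929 TPM to 1387 and 1304 TPM.

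**Figure D3:**
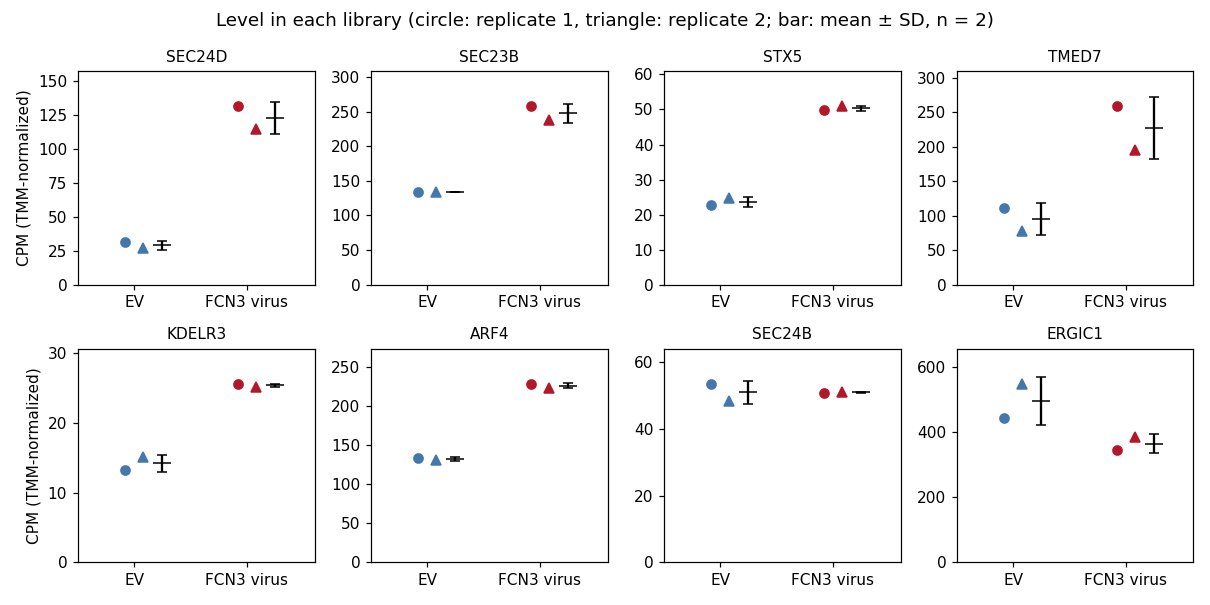
TMM-normalized CPM of 8 genes in each library, with circles for replicate 1, triangles for replicate 2, and a bar for the mean and SD of each group (n = 2). SEC24D, SEC23B, STX5, TMED7, KDELR3 and ARF4 are higher in both FCN3 libraries, the groups overlap for SEC24B, and ERGIC1 is lower in both FCN3 libraries.

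KDEL receptors bind escaped ER chaperones in the Golgi and return them through COPI vesicles. With the block, 2 of the 3 were called higher, and KDELR3, the scarcest by TPM, had the largest log2 fold change. It was at 13.3 and 15.1 CPM in EV and at 25.5 and 25.1 CPM in FCN3 (log2 fold change 0.85, standard error 0.13, FDR 0.023 in edgeR, and 2.9e-11 with the block). KDELR2 was at 242 and 218 CPM in EV and at 304 and 266 CPM in FCN3 (log2 fold change 0.31), and was called with the block only. KDELR1 was at 235 and 256 CPM in EV and at 239 and 243 CPM in FCN3, with overlapping groups and no call in either fit.

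By TPM, KDELR1 stayed the most abundant receptor in each library. It gave 63.1% and 66.9% of the summed TPM of the 3 receptors in EV and 56.8% and 60.1% in FCN3, while KDELR3 went from 3.47% and 3.71% to 5.77% and 5.9%. The sum of the 3 was 492 and 501 TPM in EV and 510 and 499 TPM in FCN3. The groups overlapped for this sum of TPM, while those of the SEC24 and p24 genes did not. These sums were not corrected for FCN3, which took 4.16% and 4.47% of the TPM in the FCN3 libraries. That lowers the TPM of every other gene there, so the overlap does not show that the receptors together were unchanged.

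Coatomer is a complex of 7 subunits, and 6 of its genes are among the members. All 6 were higher in both FCN3 libraries than in both EV libraries, and all 6 were called with the block in edgeR and none without it. Over all tested genes, 28.0% were higher in both FCN3 libraries, and 19.1% were called higher with the block. DESeq2 called 4 of the 6 with the block, COPB2 and COPZ1 being the exceptions, and 1 without it. COPA, the alpha subunit, was at 215 and 214 CPM in EV and at 355 and 323 CPM in FCN3 (log2 fold change 0.66, standard error 0.09, FDR 0.017 in edgeR, and 4.4e-16 with the block). COPE, COPB1 and ARCN1 had log2 fold changes of 0.41, 0.40 and 0.40, COPB2 one of 0.21 and COPZ1 one of 0.16. COPZ1 was at 241 and 227 CPM in EV and at 264 and 257 CPM in FCN3.

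The subunits did not move by 1 common factor. COPZ1 gave 28.5% and 27.8% of the summed TPM of the 9 coatomer genes (COPG1, COPG2 and COPZ2 included) in EV and 24.4% and 24.7% in FCN3, and COPA went from 8.04% and 8.25% to 10.4% and 9.80%. The gamma subunit COPG1, from the list of other transport genes, was at 106 and 109 CPM in EV and at 173 and 170.2 CPM in FCN3 (log2 fold change 0.67, FDR 0.013 in edgeR, and 1.9e-15 with the block). Its paralog COPG2 went the other way, at 20.6 and 18.6 CPM in EV and at 18.1 and 15.4 CPM in FCN3. COPG2 had a log2 fold change of -0.22 and was called in neither fit.

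The products of the 6 ARF cycle genes bring coatomer to the membrane and release it. In edgeR 2 of the 6 were called higher, with the block only. DESeq2 called 2 without a block, ARF4 and ARFGAP3. ARF4 was at 134 and 131 CPM in EV and at 228 and 224 CPM in FCN3 (log2 fold change 0.77, standard error 0.08). Its FDR in edgeR was just above the threshold without the block, and it was 3.6e-18 with the block. ARF1, at 427 to 454 TPM over the libraries, was at 408 and 404 CPM in EV and at 463 and 436 CPM in FCN3, and missed the threshold in both fits (FDR 0.32 and 0.011). ARF4 gave 17.4% and 17.2% of the summed TPM of ARF1, ARF3, ARF4 and ARF5 in EV, and 25.9% and 26.7% in FCN3.

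ARFGAP3, which stimulates GTP hydrolysis by ARF during coat release, was at 20.6 and 21.9 CPM in EV and at 36.2 and 36.7 CPM in FCN3 (log2 fold change 0.78, FDR 0.018 in edgeR, and 4.1e-12 with the block). The related ARFGAP1 and ARFGAP2 had log2 fold changes of 0.11 and 0.17, and the exchange factor GBF1 one of 0.17. None of these 3 was called in either fit. ARFGAP3 gave 14.1% and 13.3% of the TPM of its family in EV, and 20.2% and 19.6% in FCN3.

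SNAREs act in fusion of the vesicle with its target. Of 5 genes of SNAREs and YIP1 proteins, 3 were called higher with the block and 1, STX5, without it. STX5 (chromosome 11 of GRCh37, 62574332 to 62599523, minus strand, protein-coding), the Golgi syntaxin, was at 22.6 and 24.7 CPM in EV and at 49.8 and 50.9 CPM in FCN3. It was 2.14-fold higher (log2 fold change 1.09, standard error 0.10, FDR 0.0085 in edgeR, and 2.3e-18 with the block). Without EV replicate 1, FCN3 replicate 1 or FCN3 replicate 2 the FDR in edgeR was 0.0138, 0.0271 and 0.0174, and it was under the threshold only when EV replicate 2 was left out (0.0064), while the log2 fold change stayed between 1.04 and 1.15. BET1, which acts with STX5, and YIPF5, a membrane protein of the cis-Golgi, each had a log2 fold change of 0.49. In edgeR both were called with the block only, and DESeq2 called YIPF5 also without a block. SEC22A and YIF1A had overlapping groups and were called in neither fit.

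**Figure D4:**
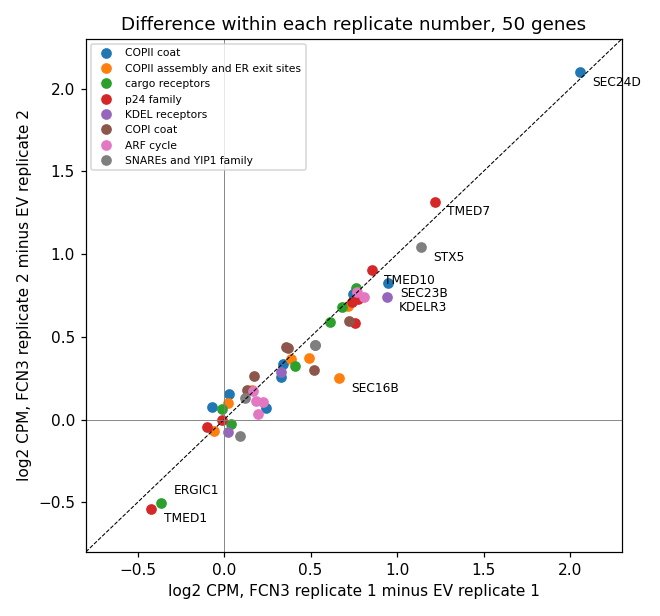
Log2 CPM difference, FCN3 minus EV, within replicate number 1 (x axis) and within replicate number 2 (y axis) for the 50 tested genes, coloured by role, with the dashed line where both are equal. SEC24D, TMED7 and STX5 are highest on both axes, and TMED1 and ERGIC1 are lowest on both. The 40 genes positive on both are 80% of the 50, beside 41.7% of all tested genes.

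Same-numbered libraries deviated from their groups together. The difference between replicates 2 and 1 in EV correlated with that in FCN3 over the 49 members with an average log2 CPM above 4 (Pearson's r = 0.839, across genes, which are not independent replicates and share the libraries), and over all 8310 such genes r was 0.806. In the fit with the block, 13 of the 50 members differed between replicate numbers, beside 22.2% of all tested genes. TMED7, LMAN1, SEC24A and SAR1B were among the members with replicate 1 the higher library in both groups, and ERGIC1 was among those with replicate 2 the higher.

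Other genes of the route were measured for comparison. Of 72 further ER-Golgi genes (coat, tether, TRAPP, COG, RAB and SNARE genes), 70 were tested, and their median log2 fold change was 0.06. The fold change was positive for 44 of the 70 (62.9%), beside 51.9% of all tested genes. Both FCN3 libraries were above both EV libraries for 27 (38.6%), beside 28.0%. The 18 tested genes for coats, exit and cargo had a median of -0.03, and 8 of them were positive. None of the 70 was called without the block in edgeR. DESeq2 called 6 higher, where it called 4.45% of all genes with an adjusted p higher. In edgeR 16 of the 70 had an unadjusted p under 0.05, 13 of them higher. Over all 14099 tested genes 3542 did, 1912 of them higher. With the block, 17 were called higher (24.3%, beside 19.1% of all genes) and 6 lower (beside 17.1%). The largest differences were those of USO1, the vesicle tether p115 (81.5 and 90.1 CPM in EV, 155 and 145 CPM in FCN3, log2 fold change 0.81), COPG1 (0.67) and RAB1A (0.65).

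RAB1A and RAB1B, close paralogs that direct ER-Golgi tethering, differed in direction. RAB1A was at 219 and 227 CPM in EV and at 340.4 and 360 CPM in FCN3, while RAB1B was at 158 and 166 CPM in EV and at 129 and 123 CPM in FCN3. Both were called with the block in edgeR (FDR 3.8e-16 and 1.6e-07) and not without it. ARF3 was also lower, at 296 and 264 CPM against 231 and 209 CPM (log2 fold change -0.35, called with the block only). The lowest value, -1.14, was that of the MIA2 entry. It rested on at most 0.384 CPM per library, was not called, and stands beside a separate entry for CTAGE5 in the same tables.

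Of 35 genes of clathrin coats, adaptors, retromer and exocyst, which act after the Golgi or at endosomes, 12 had a positive log2 fold change. Over all tested genes 51.9% did. The median of the 35 was -0.05. None was called without the block in edgeR, and DESeq2 called 1. In edgeR 5 of the 35 had an unadjusted p under 0.05, beside 3542 of all 14099 tested genes. With the block, 4 were called higher (11.4%) and 8 lower, beside 19.1% and 17.1% of all tested genes. The difference between the lists was not tested, and the members had been chosen with earlier results of these data known.

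**Figure D5:**
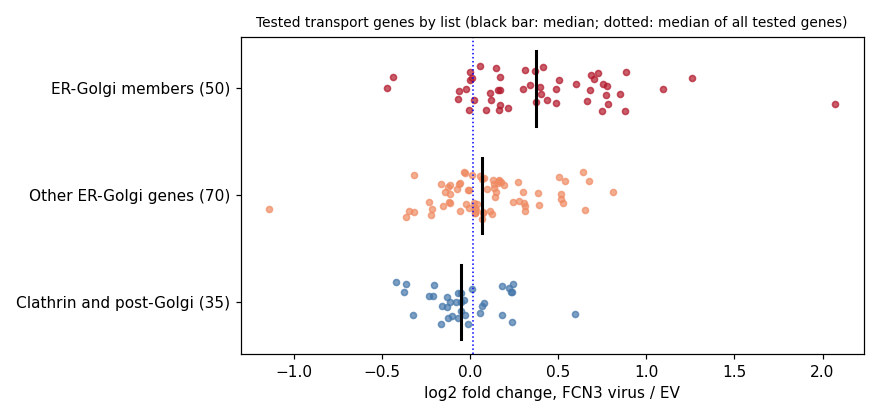
Log2 fold change, FCN3 virus over EV, of the tested ER-Golgi members, of 70 other ER-Golgi genes and of 35 clathrin and post-Golgi genes (points, 1 per gene, spread vertically for legibility), with each list's median as a black bar. The medians are 0.37, 0.06 and -0.05, and the dotted line is the median of all tested genes, 0.02.

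A short sequence was then looked for in the promoters. Promoter sequence was not used to choose the members, but they were chosen with earlier results of these data known. The share of members with the sequence may therefore not be independent of those results. RefSeq promoters of 300 bases (250 before and 50 after each annotated start, build GRCh38.p14) were found for 44 of the 51 members. SEC24D, ERGIC1, TMED4, TMED9, KDELR2, ARF4 and ARFGAP1 had no entry in the table. The windows were searched on both strands for the core letters TGACGTG of the UPR element, a sequence that XBP1 and ATF6 are known to bind, and for the ER stress response element in both its forms, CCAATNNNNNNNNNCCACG and ATTGGNCCACG. The core, extended by a G and read on the other strand, contains the CCACG of the other motifs.

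The core was present in 14 of the 44 members (31.8%), in at least 1 of their windows. It was present in 3.31% of the 9937 tested genes with a promoter in the table, in 2.4% of all 27305 genes of the table, and in 3 of 88 other transport genes (3.41%). By window, 26.2% of the 61 windows of the members and 1.97% of all 35116 windows held it. Neither form of the ER stress response element was found in a member, and they were present in 0.0916% and 0.0696% of all genes. These are matches of letters in windows of 300 bases, not measurements of binding. The core also resembles the cAMP response element, so a match to its letters is not particular to the UPR element.

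The matched members were SEC13, SEC23A, SEC24A, SEC16A, SEC16B, MIA3, KDELR3, COPA, COPB1, COPB2, COPE, ARF1, GBF1 and STX5, so that 4 of the 6 coatomer genes among the members carry it. For 5 of them the table gives a single start and the core lies wholly before it. These windows are shown 5′ to 3′ in the direction of the gene, with the core, or its reverse complement, in capitals.
STX5 (chr11:62832052-62832102, minus strand): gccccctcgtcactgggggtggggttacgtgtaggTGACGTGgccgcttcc
MIA3 (chr1:222644267-222644328, plus strand): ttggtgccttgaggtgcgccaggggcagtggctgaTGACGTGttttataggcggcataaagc
KDELR3 (chr22:38468016-38468092, plus strand): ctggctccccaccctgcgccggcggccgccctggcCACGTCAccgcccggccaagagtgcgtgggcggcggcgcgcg
COPB1 (chr11:14499817-14499893, minus strand): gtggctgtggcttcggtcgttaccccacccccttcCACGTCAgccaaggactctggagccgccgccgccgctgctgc
SEC24A (chr5:134648571-134648647, plus strand): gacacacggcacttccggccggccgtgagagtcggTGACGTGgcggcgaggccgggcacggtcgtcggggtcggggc

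The first base of the core lay 16, 27, 45, 47 and 179 bases before the start of STX5, MIA3, KDELR3, COPB1 and SEC24A. Their log2 fold changes were 1.09, 0.70, 0.85, 0.40 and 0.16, in the same order. Over the tested members, those with the core had a median log2 fold change of 0.35 (14 genes, range 0.09 to 1.09) and those without it one of 0.37 (29 genes, range -0.47 to 1.26). Among all tested genes the medians were 0.09 with the core (329 genes) and 0.01 without it (9608 genes).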

How the data were processed

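RNA-seq of 2 EV and 2 FCN3 libraries was analysed. After trimming, the authors mapped reads to hg19 by STAR 2.6.1d and quantified genes by RSEM. The deposited tables give, per gene, expected counts (estimated counts, not normalized), TPM and FPKM (both normalized for length and depth by RSEM). The strand setting of the counting is not given in the sources used here, so SEC24B, which has an antisense gene in the tables, is uncertain. The same holds for SEC24A and SAR1B, which overlap each other on opposite strands of chromosome 5.

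Expected counts were rounded and fitted over all genes with edgeR 4.0.16 in R 4.3.3 (TMM, filterByExpr, quasi-likelihood test, Benjamini-Hochberg adjustment over 14099 genes, FDR 0.01). The standard error of a log2 fold change is its size over the square root of F. With 2 against 2 libraries, an exact permutation test cannot go below p = 0.333, so single genes were tested only in these fits. The floor of 3 counts corresponds to 0.0823 to 0.179 CPM and covers counting error only. DESeq2 1.42.0 and limma 3.58.1 served as alternatives. Members and gene lists were chosen with earlier results of these data known. The rule for naming genes took called members, the 5 largest and 5 smallest log2 fold changes, the SEC24, SEC23, SAR1 and KDELR families, the members of other families whose share moved most, and the 3 largest and 3 smallest other ER-Golgi genes. Library values of further members were added after their values were seen. Same-numbered libraries deviated together (r = 0.806 over 8310 genes), a hint from the data and not from the design. Gene locations come from GENCODE on GRCh37. CNIH1 and TRAPPC13 were matched by older symbols.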

Additional observations from a re-analysis of the deposited data

How the results depend on the processing

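With 2 libraries in each group, calls near the threshold depended on the model more than the sizes of the differences did. Members called higher numbered 3 as reported, 31 with the replicate block, 18 with DESeq2, 28 with DESeq2 and the block, 5 with at least 10 counts in every library, 1 with limma on log2(TPM + 1) or log2(TPM + 0.1), and 19 at an FDR of 0.05. They numbered 1 to 3 when each library was left out, with 1 without FCN3 replicate 1. SEC24D was called in each setting named here and was the only member called in all of them. Members called lower numbered 0 as reported, 2 with the replicate block and 1 with DESeq2 and the block.

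For the other ER-Golgi genes, the counts called higher were 0 as reported, 17 with the replicate block, 6 with DESeq2, 9 with both, 7 at an FDR of 0.05 and 0 to 1 with a library left out, and those called lower were 6 with the block and 3 with DESeq2 and the block. For post-Golgi genes, those called higher were 4 with the block, 1 with DESeq2, with or without it, and 1 at an FDR of 0.05, and those called lower were 8 with the block and 3 with DESeq2 and the block. Over all genes, 104 higher and 32 lower calls became 2690 and 2413 with the block, 588 and 458 with DESeq2, 1106 and 1103 with both, 624 and 390 at an FDR of 0.05, and 78 to 181 and 14 to 86 with a library left out (181 and 86 without EV replicate 2, 53 lower without EV replicate 1, 14 lower without FCN3 replicate 1).

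The median log2 fold change of the members was 0.37 as reported and 0.25 and 0.27 on log2(TPM + 1) and log2(TPM + 0.1), scales on which the median of all tested genes was -0.07 and -0.09 instead of 0.02. Uncalled values close to 0 changed sign. With a library left out, KDELR1 ranged from -0.0765 to 0.0273 (above 0 without EV replicate 2), SAR1A from -0.141 to 0.0132 (above 0 without EV replicate 1 and without FCN3 replicate 2), SEC24A from -0.0668 to 0.359 (below 0 without FCN3 replicate 1) and SEC24B from -0.0748 to 0.0814 (above 0 without EV replicate 1 and without FCN3 replicate 1). SEC24B went to 0.00158 with FCN3 left out before normalization and 0.00222 with at least 10 counts. SEC23A went to -0.0118 and -0.0119 on the TPM scales with 1 and 0.1 added, and SAR1B to -0.0396 and -0.042. SAR1B ranged from -0.129 to 0.277 with a library left out, below 0 without EV replicate 2 and without FCN3 replicate 1. TMED3 ranged from -0.0689 to 0.0562, above 0 without EV replicate 1 and without FCN3 replicate 2. The cause of these changes was not tested.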
